A study of Mus musculus with 6 samples.

Results

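The genes described are 10 transcription factors of 3 families: the Krüppel-like factors *Klf2*, *Klf3*, *Klf4*, *Klf6*, *Klf10* and *Klf13*, the early growth response genes *Egr1*, *Egr2* and *Egr3*, and the nuclear receptor *Nr4a1*. They were picked by gene symbol, and all 10 were found among the 32285 genes of the deposited tables. The study sorted CD45+/CD11b+ cells, the gate that holds brain myeloid cells, from whole brains of male C57BL/6J mice at postnatal day 89 and profiled them by 3′ single-cell RNA-seq. Each of 3 mice was captured with the 10X V3.0 kit and the 10X V3.1 kit, giving 6 libraries that shared 1 flow cell. All brains were dissociated by cold Dounce homogenization, without enzyme. Mouse 2 was processed with a cocktail of actinomycin D, triptolide and anisomycin, which block transcription and translation (DNC-INHIB). Mice 1 and 3 were processed without it (DNC-NONE). With 1 DNC-INHIB mouse, the cocktail and the animal cannot be told apart.

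Krüppel-like factors bind GC-rich and CACCC-type sequences through C-terminal zinc fingers and can activate or repress their targets. *Klf2* and *Klf4* are known from endothelial cells, quiescent lymphocytes and monocytes, *Klf6* from myeloid inflammatory responses, and *Klf3* mostly as a repressor. *Egr1* to *Egr3* and *Nr4a1* are immediate early genes: they are transcribed within minutes of a stimulus, through serum response factor, its ETS partners, CREB and MEF2 proteins, and their transcripts are short-lived. *Nr4a1* is also required for the patrolling subset of monocytes. *Klf2* and *Egr1* stand on the study's list of genes induced ex vivo in microglia.

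Positions are those of GRCm38 (GENCODE M21, 1-based). *Klf2* (ENSMUSG00000055148) is on chromosome 8 from 72319033 to 72321656, *Klf4* (ENSMUSG00000003032) on chromosome 4 from 55527143 to 55532466, *Klf6* (ENSMUSG00000000078) on chromosome 13 from 5861482 to 5870394, and *Klf10* (ENSMUSG00000037465) on chromosome 15 from 38291463 to 38300706. *Klf3* (ENSMUSG00000029178, chromosome 5, 64803388 to 64832901) overlaps *C230096K16Rik* on its own strand and *Gm20033* on the other strand. *Klf13* (ENSMUSG00000052040, chromosome 7, 63886351 to 63938915) overlaps *E030018B13Rik* and *Gm27252* on the other strand. The counts of *Klf3* and *Klf13* are therefore less certain than those of the other members. *Egr2* (ENSMUSG00000037868) is on chromosome 10 from 67535475 to 67542188, *Egr3* (ENSMUSG00000033730) on chromosome 14 from 70077203 to 70082614, and *Nr4a1* (ENSMUSG00000023034) on chromosome 15 from 101254269 to 101274795.

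Promoter windows, the 250 bases before a RefSeq transcript start, were held for 7 of the 10 members and were searched on both strands for the sites that members of these families and their regulators bind. The EGR site GCGGGGGCG was present in the windows of *Klf2*, *Klf3*, *Klf4* and *Nr4a1*, and in 2.57% of 32851 windows in all. A CArG box, the site of serum response factor, was present in 4 of the 5 windows of *Egr2* (1.47% of all windows), and a MEF2 site in that of *Klf2* (2.92%). Windows 3, 4 and 5 of *Egr2* overlap and share the same CArG box, so the 4 are not separate sites. The cAMP response element TGACGTCA was found in none of these members' windows (1.55% of all windows), which says only that these letters are not there. The stretches that hold the matches are shown because they set the KLF genes and *Nr4a1* beside the EGR genes whose protein could read them. Capitals mark the matched site, and each stretch is on its gene's strand in GRCm38.p6.
*Klf2*, EGR site then MEF2 site, chr8:72318852-72318961, plus strand: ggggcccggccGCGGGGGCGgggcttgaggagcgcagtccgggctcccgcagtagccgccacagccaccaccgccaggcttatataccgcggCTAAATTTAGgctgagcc
*Klf3*, EGR site found 2 times, chr5:64803301-64803350, plus strand: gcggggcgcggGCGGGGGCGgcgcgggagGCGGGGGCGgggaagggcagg
*Klf4*, EGR site read on the other strand, chr4:55532646-55532695, minus strand: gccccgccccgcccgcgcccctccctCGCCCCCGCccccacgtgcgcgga
*Nr4a1*, EGR site read on the other strand, chr15:101266766-101266815, plus strand: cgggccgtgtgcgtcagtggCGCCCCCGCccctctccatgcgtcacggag
*Egr2*, CArG box, chr10:67537769-67537828, plus strand: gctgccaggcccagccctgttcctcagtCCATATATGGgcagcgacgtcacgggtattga
The stretches of *Klf2* and *Klf4* lie upstream of the annotated gene, that of *Klf3* also lies in an exon of the antisense gene *Gm20033*, and those of *Nr4a1* and *Egr2* lie in introns of longer transcripts. A match is a description of the sequence, and binding was not measured here.

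The 6 libraries held 83133615 unique molecular identifiers (UMIs, each a captured RNA molecule) in 29412 barcodes, of which 19725 passed limits on genes, UMIs and mitochondrial share. In the V3.0 library of mouse 3, 21.5% of barcodes passed, against 70.0% to 76.8% in the other libraries. A total of 98 barcode sequences occurred in more than 1 library, between 1 and 14 for a pair of libraries. Cells were assigned by UMIs of marker genes, which gave 18751 microglia (888 to 4523 per library), 63 border macrophages, the macrophages of meninges, vessels and choroid plexus (3 to 23 per library), and 279 neutrophils (23 to 56 per library). *P2ry12* had a UMI in 99.9% of the microglia, *Mrc1* in 84.1% of the border macrophages and *Ly6g* in 87.5% of the neutrophils. Markers on the border macrophage list ranged from *Lyve1* in 6.35% of the border macrophages to *Ms4a7* in 87.3%, with *Cd163* in 19.0%. Microglial markers ranged from *Slc2a5* in 0% of the same cells to *Fcrls* in 73.0%, with *P2ry12* in 39.7%. Border macrophages were the thinnest group, with 266581 UMIs in all, against 68078869 for microglia and 1698336 for neutrophils. The median UMIs per cell were 3518, 4048 and 5720 in that order.

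The 10 members together took 0.0675% of the UMIs of microglia, 0.0822% of those of border macrophages and 0.0628% of those of neutrophils. In microglia the KLF genes held 99.6% of these UMIs. A KLF transcript was thus common and an EGR or NR4A transcript rare in these cells: *Klf3* had a UMI in 60.8% of microglia, *Klf6* in 48.1% and *Klf13* in 29.0%, but each of the 4 immediate early members in under 0.3%. Levels below are in CPM, the UMIs of a gene per 1000000 UMIs of the same cells. A 3′ library counts each captured transcript end, so values were not divided by gene length.

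*Klf2* was higher in border macrophages and neutrophils than in microglia. Microglia of mice 1, 2 and 3 held 33.0, 65.0 and 40.8 CPM, and neutrophils held 181, 165 and 173 CPM, with no overlap. Border macrophages held 338, 182 and 27.5 CPM, so that mouse 3 fell below all microglial values. In mouse 1, 18 of the 22 UMIs of *Klf2* in border macrophages came from 1 cell of the V3.1 library, and without that cell the value was 68.6 CPM. That cell held 16 UMIs of border macrophage markers and 0 of monocyte markers, where cells with 3 or more monocyte marker UMIs had been left out. Each test between cell types used edgeR's quasi-likelihood test on sums per mouse with the mouse as a block, trimmed-mean (TMM) scaling and Benjamini-Hochberg adjustment over all genes tested. Calls needed an adjusted p under 0.05 together with a change of more than 0.58 on the log2 scale, in either direction. *Klf2* was called higher in border macrophages (log2 fold change 2.31, SE 0.29, adjusted p = 1.53e-13 from edgeR), and still without mouse 1 (1.73, adjusted p = 5.36e-05). In neutrophils its log2 fold change against microglia was 3.42 (SE 0.17, adjusted p = 1.53e-92 from edgeR). A UMI of *Klf2* was seen in 10.1% of microglia, 27.0% of border macrophages and 61.6% of neutrophils. After each cell was thinned to 2000 UMIs, these shares were 7.06%, 19.0% and 31.5%.

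Among microglia, border macrophages and neutrophils, *Klf4* was highest in border macrophages, on few UMIs, and lowest in neutrophils. It was at 8.69, 11.1 and 10.7 CPM in microglia, at 76.9, 30.3 and 27.5 CPM in border macrophages, and had no UMI in any of the 279 neutrophils. The 3 groups did not overlap, but the border macrophage value of mouse 3 rests on 1 UMI. Border macrophages were called higher than microglia (log2 fold change 2.29, SE 0.65, adjusted p = 0.00426 from edgeR) on 11 UMIs in 8 cells, and the call was lost without mouse 1 (1.76, adjusted p = 0.199) and within either kit alone. Neutrophils were called lower than microglia and than border macrophages (adjusted p = 0.00471 and 2.08e-05 from edgeR). *Klf4* passed the filter on low counts only through border macrophages, so these calls are a description. The calls with no filter are given below. With neutrophils set to the floor of 3 UMIs over all of them, the level was at least 2.07-fold lower than in microglia under TMM scaling and at least 5.76-fold lower by total UMIs. Against border macrophages it was at least 10.1-fold lower under TMM scaling and at least 23.4-fold lower by total UMIs. Neutrophils had the highest median of UMIs per cell of the 3 populations, but 12 neutrophil marker genes took 46.5% to 51.2% of their UMIs. The part of depth in the absence of *Klf4* UMIs was not tested.

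*Klf3*, known mostly as a repressor, was higher in microglia than in border macrophages and neutrophils in every mouse, at 282, 298 and 309 CPM. Border macrophages held 108, 139 and 55.1 CPM and neutrophils held 100.4, 110.4 and 83.2 CPM, so that these 2 populations overlapped each other and neither overlapped microglia. It was called lower in border macrophages (log2 fold change −1.05, SE 0.27, adjusted p = 0.000864 from edgeR), and in all 12 alternatives tried. Against neutrophils the result rested on the scaling, as given below.

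*Klf6* and *Klf13* were detected in all 3 populations in every mouse. *Klf6* had 185, 226 and 210.5 CPM in microglia, 261, 290.5 and 248 CPM in border macrophages and 210.1, 191 and 204 CPM in neutrophils. Its values in microglia and neutrophils overlapped, and border macrophages lay above both. The difference between border macrophages and microglia was called (log2 fold change 0.67, SE 0.21, adjusted p = 0.0151 from edgeR) but held in 2 of 12 alternatives. *Klf13* had 102, 110.0 and 99.6 CPM in microglia, 92.3, 157 and 55.1 CPM in border macrophages and 165, 131 and 137 CPM in neutrophils. Border macrophages spanned the microglial range and were not called (log2 fold change 0.52, SE 0.31). *Klf10*, a TGF-beta inducible member, was low, at 6.18, 6.50 and 6.73 CPM in microglia, 30.8, 18.2 and 0 CPM in border macrophages (5 UMIs) and 6.18, 5.26 and 10.4 CPM in neutrophils (12 UMIs).

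**Figure D1:**
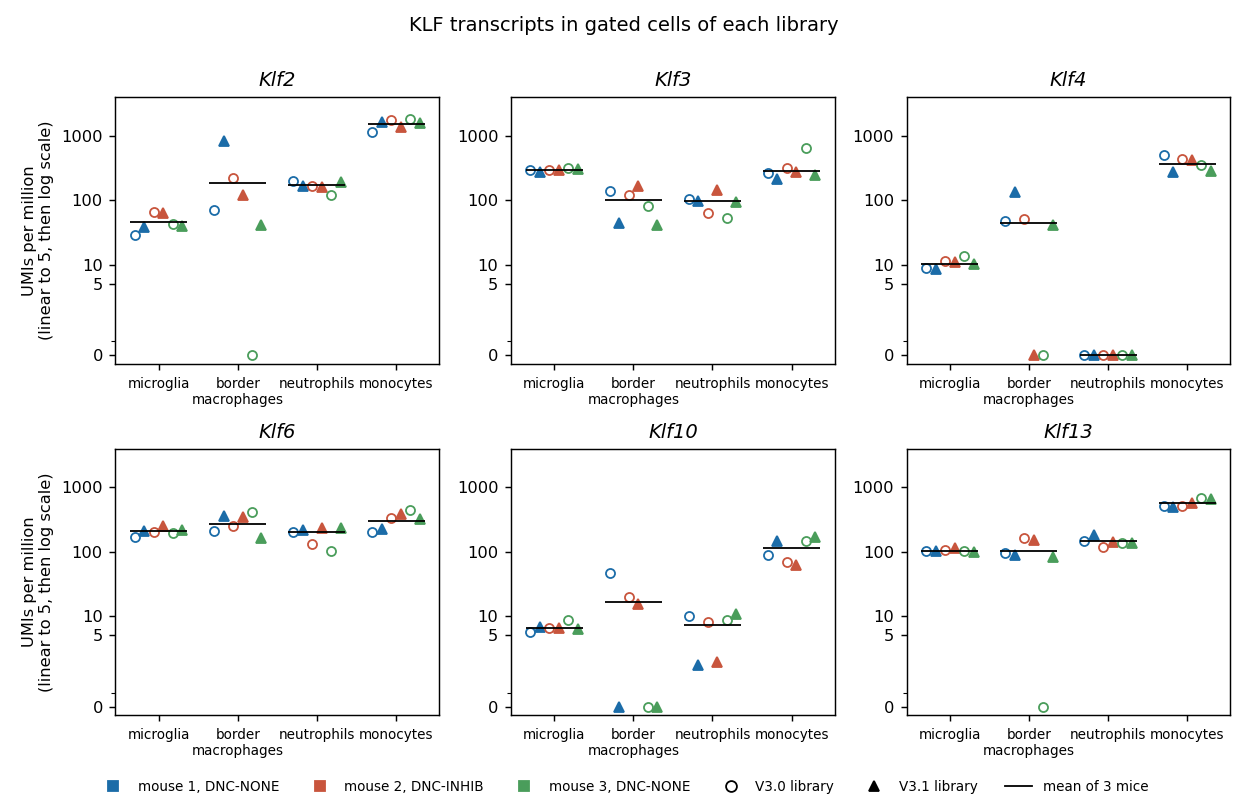
CPM of 6 KLF genes (y axis, linear to 5 and logarithmic above) in gated microglia, border macrophages, neutrophils and cells past the monocyte gate, with 1 point per library, colored by mouse and shaped by kit. *Klf4* is at 0 in all 6 neutrophil sums, *Klf3* is higher in microglia than in neutrophils, and *Klf2* reaches 843 CPM in the border macrophages of 1 library.

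Of the 10 members, 6 passed the filter on low counts in the cell type fit. Of these, *Klf4* and *Klf10* reached its limit of 17.5 CPM only in border macrophages, in 3 and in 2 of their 3 sums, so that counts over the 6 are a description and nothing more is drawn from them. Between border macrophages and microglia 4 of the 6 were called (3 higher and 1 lower), where 15.8% of all 8042 genes tested were called, 702 (8.73%) higher and 570 (7.09%) lower. Between neutrophils and microglia 5 of the 6 were called, 4 higher and 1 lower, where 66.5% of all genes were called, 28.6% higher and 37.9% lower. Between neutrophils and border macrophages 5 were called, 4 higher and 1 lower, where 44.4% of all genes were called, 22.7% higher and 21.7% lower. With no filter all 10 members were tested, and 4, 5 and 6 of them were called in these 3 comparisons, where 6.62%, 33.6% and 17.4% of 18978 genes were called. *Klf4* was called in all 3 of these fits (against microglia 2.10 in border macrophages, adjusted p = 0.0221 from edgeR), and *Klf10* in neutrophils against microglia (1.55, adjusted p = 0.0351).

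The neutrophil results depended on how the sums were scaled. The 12 neutrophil marker genes took 46.5% to 51.2% of the UMIs in neutrophils, *S100a8* and *S100a9* alone 37.2% to 40.7%, against at most 0.133% in microglia. TMM scaling sets such genes aside, and scaling by total UMIs does not. By total UMIs, an alternative chosen after the data were seen, the median of all 8042 genes between neutrophils and microglia moved from −0.34 to −1.81, and the calls from 2300 higher and 3050 lower to 954 (11.9%) higher and 5956 (74.1%) lower. *Klf2* remained called higher in neutrophils (1.94, adjusted p = 6.81e-35 from edgeR) and *Klf4* called lower. *Klf3* became called lower (−1.58 instead of −0.11). *Klf6* went from a called 1.45 to −0.03, *Klf10* from a called 1.61 to 0.13, and *Klf13* from a called 1.96 to 0.49, below the fold threshold. Between neutrophils and border macrophages the same change of scale left 1 of the 5 calls, *Klf4*. *Klf2* went from 1.11 to −0.08, *Klf3* from 0.95 to −0.25, *Klf6* from 0.78 to −0.43 and *Klf13* from 1.44 to 0.23. The share of higher calls over all genes there moved likewise, from 1826 higher and 1745 lower to 745 (9.26%) higher and 3594 (44.7%) lower. Between border macrophages and microglia the calls of *Klf2*, *Klf3* and *Klf4* remained, and *Klf6* fell to 0.39, not called, while the calls over all genes went to 577 (7.17%) higher and 1079 (13.4%) lower. What both scalings shared was *Klf2* higher in both other populations than in microglia, *Klf4* absent from the neutrophil counts, and *Klf3* lower in border macrophages than in microglia.

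**Figure D2:**
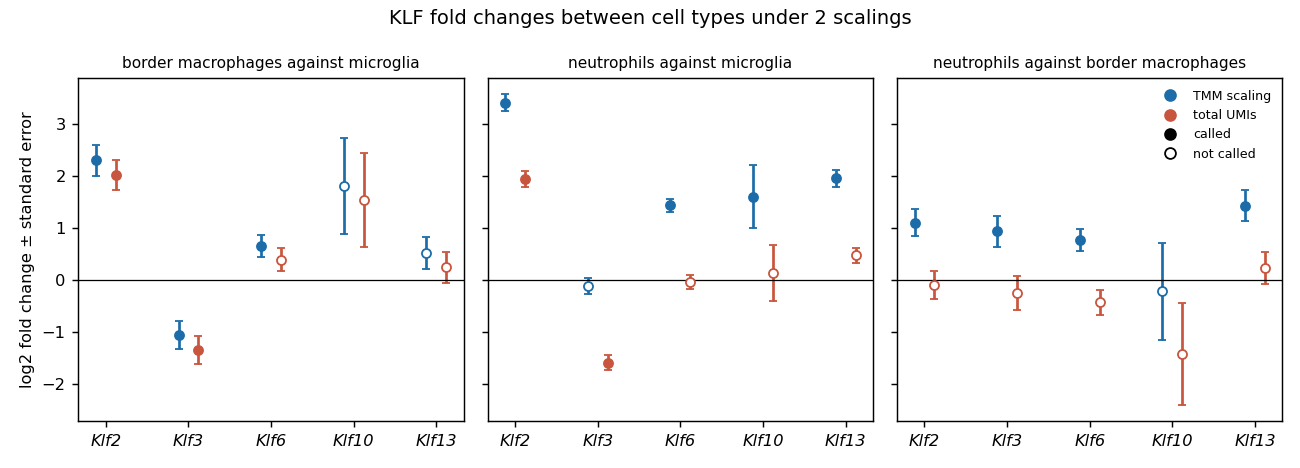
Log2 fold changes (y axis, ± standard error from edgeR, n = 3 mice) of 5 KLF genes in 3 cell type comparisons under TMM scaling and scaling by total UMIs. Filled points were called, open points were not. In the neutrophil comparisons all genes move down together under total UMIs, *Klf2* stays called against microglia at 1.94, and *Klf6* falls to −0.03. *Klf4* is left out because its neutrophil counts are 0.

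Markers of other cell types within each population are given for scale. In border macrophages the 5 monocyte markers summed to 92.3, 24.2 and 55.1 CPM in mice 1, 2 and 3, with 3 of the 5 at 0, and the 10 microglial markers summed to 2076, 1719 and 1515 CPM. Cells past more than 1 gate had been left out, 65 of them past the border macrophage and monocyte gates, against 63 border macrophages kept. The gates thus bound these sums, which do not show how free of monocytes the group is. In microglia the 10 border macrophage markers summed to 272 to 283 CPM per mouse, and in neutrophils to 12.5 to 24.5 CPM. The part of other cells' RNA in the values of the border macrophages was not tested.

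The next question was whether the kit or the cocktail moved these genes within microglia, the population with the depth to show it. Between kits none of the 7 members that passed the filter was called, where 3.07% of 11995 genes were called. By an unadjusted p below 0.05 the count was 1 of the 7 with edgeR, where 3523 of 11995 genes had such a p. With DESeq2, which called 0 members, the count was also 1, where 2703 of the 11995 genes had such a p. That member was *Klf6*, at 167, 206 and 193 CPM with V3.0 and 209.9, 249 and 214 CPM with V3.1 in mice 1, 2 and 3. In each of the 3 mice the V3.1 library held more, and the 2 kits' ranges did not overlap (log2 fold change 0.27, SE 0.09, adjusted p = 0.0762 from edgeR). With the mouse as a block the adjusted p of *Klf6* was 0.000547 at the same fold change, which is under the fold threshold. *Klf3* had 302 ± 12.1 CPM (SD, n = 3 libraries) with V3.0 and 291 ± 18.9 CPM (SD, n = 3) with V3.1, and *Klf13* had 103 ± 2.67 and 105 ± 8.11 CPM. *Klf2* had 46.0 ± 18.8 and 47.3 ± 14.1 CPM, a difference much smaller than the spread between mice. The shares of microglia with a UMI at an equal depth of 2000 UMIs differed between kits by at most 3.08 percentage points, for *Klf6* (exact permutation test, two-sided, p = 0.30, adjusted over 10 members to 1 by Benjamini-Hochberg). With 3 libraries on each side p cannot go below 0.10. The kit difference in border macrophages, tested as an interaction against that in microglia, was called for none of 6 members, where 0.0205% of 9769 genes were called. None of the 6 had an unadjusted p below 0.05 in edgeR, where 585 of 9769 genes did, and no other tool was run. The standard errors of these terms on the log2 scale were lowest for *Klf6* (0.41) and highest for *Klf10*, and that of *Klf2* was 0.66.

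*Klf2* was the member called for the DNC-INHIB mouse, though not the only member highest there. In microglia its level was 66.2 and 63.5 CPM in the V3.0 and V3.1 libraries of mouse 2, 29.1 and 38.1 CPM in those of mouse 1, and 42.6 and 40.4 CPM in those of mouse 3. Both libraries of mouse 2 lay above all 4 others, under each kit. With sums per mouse, the log2 fold change of DNC-INHIB against DNC-NONE was 0.83 (SE 0.11, adjusted p = 4.21e-12 from edgeR), and the fit takes the spread of the lone treated mouse to be that of the other 2. This p sets 1 mouse against 2 others and does not measure the cocktail. *Klf2* was called in all 9 alternatives, each of which rests on the same treated mouse, with log2 fold changes from 0.70 to 1.02 and adjusted p-values from 1.37e-14 to 0.0123, the last from DESeq2. *Klf2* was 1 of 10 members called, all 10 of which were tested, where 0.859% of 13154 genes were called. A *Klf2* UMI was seen in more cells of mouse 2, and more UMIs were seen in those cells: 2.42% of its microglia held 3 or more *Klf2* UMIs, against 1.06% in mouse 1 and 1.31% in mouse 3.

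Other cell types' markers were looked at because *Klf2* is high in endothelial cells and monocytes. The 5 monocyte markers summed to 10.8, 11.6 and 16.3 CPM in the microglia of mice 1, 2 and 3, so they were highest in mouse 3. Cells with 3 or more UMIs of these markers had been left out by the gates. Of 3 endothelial markers *Cldn5* was at 0 in every mouse, *Flt1* was at 0.448, 0.344 and 0.765 CPM, and *Pecam1* was at 22.6, 27.8 and 21.7 CPM. With the 8.43% of cells of mouse 2 and the 7.25% and 6.91% of mice 1 and 3 that held an endothelial marker UMI left out, *Klf2* was at 67.3, 33.9 and 41.4 CPM in that order. With cells holding a monocyte marker UMI left out, it was at 64.5, 33.5 and 40.4 CPM in mice 2, 1 and 3. Red blood cell markers were at 0.49, 4.55 and 0 CPM in mice 1, 2 and 3, and without the cells that held them *Klf2* of mouse 2 was at 64.6 CPM. Mouse 2 was the highest of the 3 mice in each case. The part of endothelial cells, monocytes and red blood cells in this difference was not tested, whether or not these markers detect them.

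The other members of microglia were not called for DNC-INHIB. *Klf6*, *Klf13* and *Nr4a1* were also highest in mouse 2 under each kit, while *Klf3*, *Klf4*, *Klf10*, *Egr1*, *Egr2* and *Egr3* were not. *Nr4a1* was at 1.21 and 1.24 CPM in the libraries of mouse 2 and at 0 to 0.630 CPM in the others. *Klf6* had a log2 fold change of 0.21 (SE 0.10) and *Klf13* one of 0.14 (SE 0.10), and *Klf3* and *Klf10* had 0.02 and 0.03. *Egr3* at 2.06 (SE 0.93) and *Nr4a1* at 1.23 (SE 0.57) rested on 22 and 54 UMIs in all and had adjusted p-values of 0.531 and 0.551 (edgeR). In border macrophages 3 members were testable and none was called, where 0.159% of 1256 genes were called. *Klf2* there had a log2 fold change of −0.17 (SE 0.55), and no member had an unadjusted p below 0.05 in edgeR, the only tool run. Whether the DNC-INHIB difference of *Klf2* itself differs between microglia and border macrophages was not tested.

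**Figure D3:**
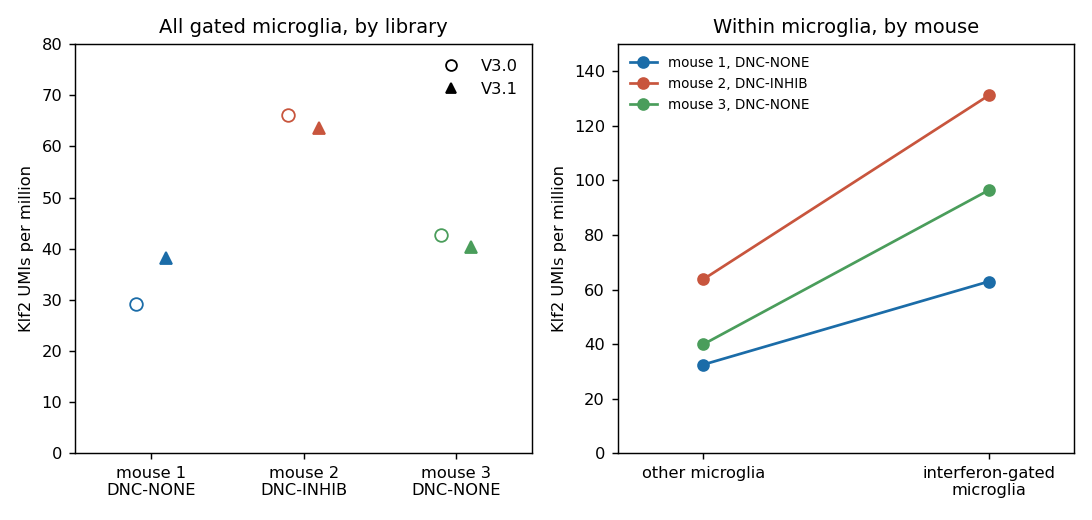
*Klf2* CPM (y axis from 0) in all gated microglia of each library, by mouse and kit (left), and in interferon-gated and other microglia of each mouse, joined by lines (right). Both libraries of mouse 2 (63.5 and 66.2 CPM) lie above the other 4, and in all 3 mice the interferon-gated cells are higher.

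Within microglia, *Klf2* was higher in the cells with interferon-response transcripts. A gate of at least 5 UMIs over *Ifit1*, *Ifit2*, *Ifit3*, *Isg15*, *Irf7*, *Oasl2*, *Rtp4* and *Usp18* held 268 microglia. *Klf2* was at 63.0, 131 and 96.4 CPM in the gated cells of mice 1, 2 and 3 and at 32.5, 63.8 and 39.9 CPM in the other microglia. It was higher in 3 of 3 mice (log2 fold change 1.11, SE 0.18, adjusted p = 2.82e-08 from edgeR with the mouse as a block). Of the gated cells 22.0% had a *Klf2* UMI (95% exact interval 17.2% to 27.5%), against 9.95% (9.52% to 10.4%) of the others, at medians of 3597 and 3517 UMIs per cell. The interval covers counting error only. The call was lost with a gate of doubled UMIs (0.77, adjusted p = 0.195) and without the block (1.18, adjusted p = 0.0569). Of 7 members tested *Klf2* was the 1 called, where 2.33% of 11946 genes were called. *Klf3* was lower by less than the fold threshold (log2 fold change −0.39, SE 0.10, adjusted p = 0.00567 from edgeR). It was at 139, 258 and 268 CPM in the gated cells and 284, 298 and 309 CPM in the others. Monocyte markers summed to 25.2, 17.2 and 17.9 CPM in the gated cells and 10.6, 11.5 and 16.3 CPM in the others, and their part in the result was not tested. With the interferon-gated cells left out, *Klf2* in the remaining microglia was still highest in mouse 2.

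The immediate early members were rare in microglia. Of 18751 microglia, 39 (0.208%) held *Egr1*, which is ENSMUSG00000038418 and spans 34859823 to 34864984 of chromosome 18. *Egr2* was seen in 29 (0.155%), *Egr3* in 9 (0.0480%) and *Nr4a1* in 43 (0.229%). *Snap25*, a neuronal gene that microglia should lack, had a UMI in 0.197% (95% exact interval 0.139% to 0.272%). The shares of *Egr1*, *Egr2* and *Nr4a1* lay within that interval and that of *Egr3* below it. *Snap25* is 1 gene, and its share sets no background level for other genes. Some cells held UMIs of more than 1 of *Egr1*, *Egr2* and *Egr3*: 6 of the 39 cells with *Egr1* also held *Egr2*, and 6 of the 9 cells with *Egr3* also held *Egr1*. How much of their signal is free RNA was not tested. Over all libraries the level of *Egr1* in microglia was 0.716, 0.612 and 1.68 CPM in mice 1, 2 and 3. In all, 104 microglia held a UMI of 1 of the 4 genes and 12 held UMIs of 2 or more of them. In neutrophils *Egr1*, *Egr2* and *Egr3* had no UMI in the 279, a count of 0 that allows at most 1.08% of cells with a UMI by the floor of 3 counts, and *Nr4a1* had 2. *Fos* by contrast had a UMI in 67 of these neutrophils. In border macrophages *Egr1* had 8 UMIs in 2 cells of mouse 2, 7 of them in 1 cell, and *Nr4a1* had 2 UMIs in 2 cells of mouse 2. *Egr2* and *Egr3* had none in 63, which allows at most 4.76% of cells with a UMI by the same floor.

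**Figure D4:**
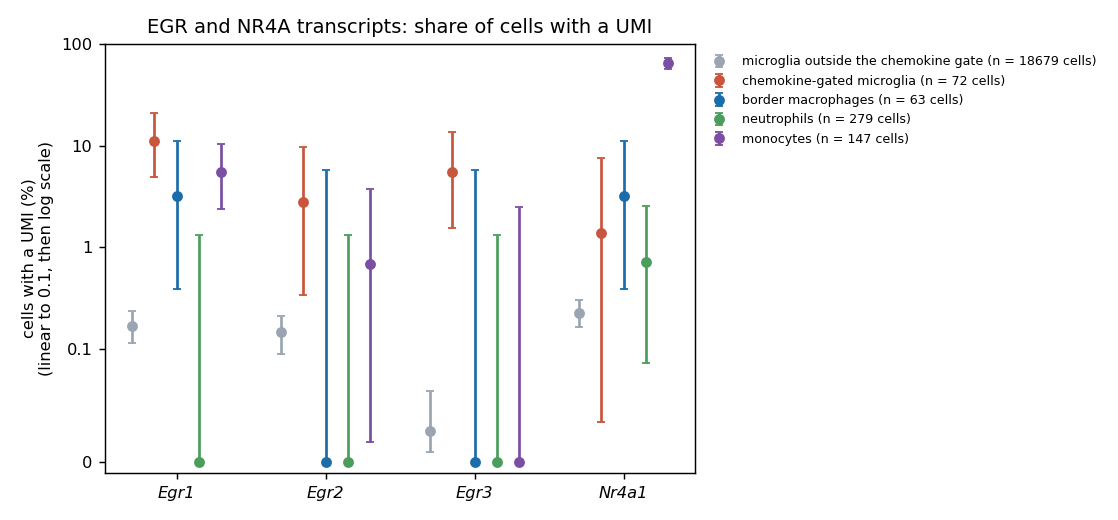
Share of cells with a UMI (y axis in percent, linear to 0.1 and logarithmic above) of *Egr1*, *Egr2*, *Egr3* and *Nr4a1* in gated populations, with 95% exact binomial intervals. Chemokine-gated microglia lie above microglia outside the chemokine gate for *Egr1*, 11.1% against 0.166%, while cells past the monocyte gate are the population with *Nr4a1* in 65.3% of cells.

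Transcripts of *Egr1* and *Egr3* were more frequent in a small set of microglia. The 72 microglia with at least 3 UMIs of the chemokines *Ccl3* and *Ccl4* held 38 UMIs of the 4 genes in 10 cells (13.9%), against 138 UMIs in 94 of the 18679 other microglia (0.503%). *Egr1* was at 47.1, 55.9 and 94.4 CPM in the gated cells of mice 1, 2 and 3 (19 UMIs in 8 cells) and at 0.450, 0.422 and 1.28 CPM in the others (46 UMIs in 31 of 18679 cells). *Egr3* was at 0, 134 and 23.6 CPM in the gated cells, and 8 of its 14 UMIs there came from 1 cell of the V3.1 library of mouse 2. *Egr1* was higher in 3 of 3 mice and *Egr3* in 2 of 3. Both were called (log2 fold changes 6.49, SE 0.86, and 8.44, SE 1.18, with adjusted p = 2.19e-11 and 4.00e-10 from edgeR), where 2.13% of 11755 genes were called. The limit of the filter was 1.02 CPM, which *Egr3* reached in 2 gated sums and in none of the other sums, and *Egr1* in 3 gated sums and 1 of the 3 others, so that being tested depended on the gated cells. With no filter the log2 fold changes were 6.48 and 8.41 (adjusted p = 4.21e-11 and 2.88e-09 from edgeR). Neither call held without mouse 1 (adjusted p = 0.289 and 0.318), where 16 of all genes were called instead of 250. *Egr3* did not pass the filter without mouse 2 or without mouse 3, and *Egr1* was called in both. *Klf6* had 251, 347 and 319 CPM in the gated cells and 185 to 226 CPM in the others, higher in 3 of 3 mice but not called (log2 fold change 0.47, SE 0.18, adjusted p = 0.200). *Klf4* had no UMI in the 72, which allows at most 4.17% of cells with a UMI by the floor of 3 counts. The gated cells had a higher median depth, 4175.5 against 3517 UMIs, and their monocyte markers summed to 15.7, 11.2 and 11.8 CPM, against 10.8, 11.6 and 16.3 CPM in the others; the part of either in the result was not tested. Of 268 interferon-gated microglia none held an EGR UMI, which allows at most 1.12% of cells with a UMI of each gene by the same floor.

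Cells past the monocyte gate (147 cells, 5 to 59 per library) were described after their values were seen, because *Klf2*, *Klf4*, *Klf13* and *Nr4a1* were higher there than in the other populations. *Ace* was seen in 71.4% of them, *Ear2* in 68.7%, *Ccr2* in 32.7% and *Ly6c2* in 18.4%. A UMI of an endothelial marker was seen in 21.1% of them and of an oligodendrocyte marker in 50.3%, against 7.61% and 7.59% of microglia. Neuronal and red blood cell markers were seen in 0% of them. The part of other cells' RNA in the values below was not tested. *Klf2* was at 1379, 1641 and 1617 CPM in mice 1, 2 and 3, *Klf4* at 391, 427 and 292 CPM, and *Klf13* at 507, 539 and 663 CPM. *Nr4a1*, rare in microglia, was at 308, 471 and 284 CPM, with a UMI in 65.3% of cells, or 46.2% at 2000 UMIs per cell. *Egr1* was at 38.5, 21.9 and 31.6 CPM, on 20 UMIs in 8 cells.

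Since the population was chosen for these values, its differences are given without a test. *Egr1* and *Nr4a1* were not in the fit of 3 cell types and passed the filter of the fit with monocyte-gate cells, with a limit of 21.3 CPM, which all 3 monocyte-gate sums of either gene reached and no microglial or neutrophil sum. Against microglia the log2 fold changes under TMM scaling were 5.35 for *Klf2* (SE 0.12), 5.50 for *Klf4* (SE 0.19), 9.10 for *Nr4a1* (SE 0.27), 0.87 for *Klf6* (SE 0.14) and 0.23 for *Klf3*. By total UMIs *Klf6* was at 0.58. Against border macrophages *Klf2* was higher by 3.04 and *Nr4a1* by 5.79 on the log2 scale, and *Egr1* was at −0.03. *Klf4* was at least 99.3-fold higher than the floor of 3 UMIs over all neutrophils under TMM scaling, and at least 224-fold higher by total UMIs. A total of 65 cells passed both the border macrophage and the monocyte gate and belong to neither group.

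Pairs of members were described in single microglia. Of 1898 microglia with a *Klf2* UMI, 60.3% also had *Klf6* and 5.22% *Klf4*, against 48.1% and 3.40% of all microglia, at medians of 3436.5 and 3518 UMIs per cell. Of 39 microglia with *Egr1*, 6 had *Egr2* and 6 had *Egr3*. The microglial cell with most *Klf2* (21 UMIs, in the V3.1 library of mouse 3) also held the most *Klf4* (10 UMIs), with 61 UMIs of microglial markers and 2 of monocyte markers.

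Other genes of these families and pathways give the setting. Of 17 related genes (other KLF, EGR and NR4A genes, *Sp1*, *Sp3* and *Wt1*), 7 were tested between kits and 9 for DNC-INHIB in microglia, and 0 were called in either. *Klf5*, known from proliferating epithelia, was the neutrophil member, at 60.3, 43.8 and 62.4 CPM in neutrophils, below 0.2 CPM in microglia and at 0 in border macrophages (log2 fold change 10.16 against microglia by edgeR). The floor of 3 UMIs over all border macrophages was 11.3 CPM. *Klf5* reached the filter's limit of 17.5 CPM only in neutrophils, so its fold change is a description. *Klf9*, a glucocorticoid-induced member, was at 61.5, 42.4 and 0 CPM in border macrophages and 3.47 to 3.94 CPM in microglia (log2 fold change 3.67). Microglia lay under the same limit, so that testing *Klf9* depended on other populations. *Klf12* was at 21.5 to 22.5 CPM in microglia and had no UMI in either other population. *Klf7* and *Sp3* were called higher in neutrophils under TMM scaling (1.57 and 1.86) with CPM of 70.1 to 89.5 and 122 to 169 in neutrophils and 65.7 to 92.0 and 103 to 108 in microglia, and neither was called by total UMIs (0.10 and 0.39). Of the 17, border macrophages had 1 higher and 1 lower of 6 tested, where 8.73% and 7.09% of all genes were called higher and lower. Neutrophils had 3 higher and 1 lower of 6, where 28.6% and 37.9% were, and 1 higher and 2 lower by total UMIs. The 6 include *Klf5* and *Klf9*, so these counts are a description.

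Some regulators and partners of the members were lower outside microglia. Of 15 (serum response factor, its ETS partners, MEF2 proteins, the kinases upstream of them, CREB, NAB corepressors and RXR), 2 of 11 tested fell in border macrophages, where 7.09% of all genes did. In neutrophils 5 fell, where 37.9% of all genes did, and 1 rose, *Nab1* (1.87, and 0.40 by total UMIs, not called). By total UMIs 5 fell in border macrophages and 10 in neutrophils, where 13.4% and 74.1% of all genes did, and none rose in either. *Mef2c*, a MEF2 factor of microglia, was at 1202 to 1346 CPM in microglia, 533 to 854 CPM in border macrophages (log2 fold change −0.65) and 7.73 to 22.9 CPM in neutrophils (−4.91). *Mef2a* and the ETS factor *Elk3* fell in neutrophils by 2.51 and 2.91 on the log2 scale. *Nab2*, which binds EGR proteins and represses their targets, fell by 3.43 in neutrophils and rose by 2.16 in the chemokine-gated microglia (adjusted p = 0.000382 from edgeR), the 1 of 15 called there, a call lost without mouse 1 (adjusted p = 0.358). *Map2k5*, the kinase of the ERK5 route to MEF2 and *Klf2*, fell by 0.64 with V3.1 (adjusted p = 0.000940 from edgeR), the 1 of 15 called between kits. Of the 15, none was called for DNC-INHIB or in interferon-gated microglia in the edgeR fit.

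Known KLF2 targets and other immediate early genes did not follow a single pattern. Of 6 targets 3 were tested between cell types. *Thbd*, thrombomodulin, was at 42.4 to 110.2 CPM in border macrophages and at most 0.27 CPM in microglia (log2 fold change 9.07). Microglia lay under the filter's limit of 17.5 CPM, so that testing *Thbd* depended on other populations. *S1pr1*, an S1P receptor, had 37.3 to 52.0 CPM in microglia and 2.08 to 7.01 CPM in neutrophils (−1.78). In the interferon-gated microglia *Cdkn1a* rose by 1.58 (adjusted p = 4.11e-06 from edgeR), a call lost without mouse 2 (adjusted p = 0.168), and none of 4 targets tested was called for DNC-INHIB. Of 9 immediate early genes outside the members 8 were tested between cell types. In border macrophages 3 rose under TMM scaling, where 8.73% of all genes did. In neutrophils 5 rose and 1 fell, where 28.6% and 37.9% of all genes did. By total UMIs 3 rose and 4 fell in neutrophils, where 11.9% and 74.1% of all genes did. *Fos*, *Ier2* and *Dusp1* rose in both border macrophages and neutrophils (*Fos* by 4.38 and 8.11, *Dusp1* by 3.90 and 6.16), under both scalings. In the chemokine-gated microglia 5 of 8 rose, where 1.10% of all genes did, among them *Atf3* (4.48) and *Ier2* (2.51). Without mouse 1 the call of *Atf3* remained (4.84, adjusted p = 0.0226 from edgeR) and the other 4 were lost. In interferon-gated microglia none of 8 was called. None of 8 was called between kits and none of 9 for DNC-INHIB in the edgeR fits.

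The genes whose level most resembled each member were found by Pearson's r of log2(CPM + 1) over the 18 sums of 6 libraries and 3 cell types, among 7911 genes, as a description without a test. The 18 sums share libraries and scaling, and most of r comes from the difference between cell types. *Klf2* was most like *Rnf141* (r = 0.94), *Txndc17* (0.91) and *Ier3* (0.90). *Klf3* was most like *Slc35b1*, *Eef2k* and *Izumo4* (0.92 to 0.93). *Klf4* was most like *Pdxk* (0.98), *Ccl24* (0.97) and *AU041133* (0.96), and *Klf13* most like *Mcl1*, *Dctn3* and *Ndufb11* (0.98 to 0.99). *Klf6* had weaker neighbors, *H2-T23* (0.87), *Uqcrfs1* (0.75) and *Casp6* (0.74). For *Klf10* they were *H2-T22*, *Htatip2* and *Cpsf7* (0.92 to 0.94), and for *Egr1*, which had UMIs in few sums, *Cd4*, *Washc2* and *Clec2i* (0.72 to 0.75).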

How the data were processed

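Single-cell 3′ RNA-seq counts were analysed from 6 libraries of 3 mice. The deposited values are raw UMI counts per gene and barcode, which the authors made by alignment to mm10 (GRCm38) with Cell Ranger 5.0.0; bcl2fastq and Seurat are also named in the submitters' processing notes. Kept barcodes held 1000 to 4000 genes, no more than 12000 UMIs and no more than 15% of UMIs from mitochondrial genes. Doublets were treated only by these limits and by leaving out cells past several gates (189). Gates on summed marker UMIs were 20 for microglia (10 markers), 5 for border macrophages (9 markers), 10 for neutrophils (10 markers) and 3 for monocytes and for T or NK cells, and 276 cells passed none. *Stab1* was left out of the border macrophage gate because microglia express it, *S100a8* and *S100a9* were left out of the neutrophil gate, and the monocyte gate was applied only below the neutrophil gate because neutrophils express *Ly6c2*, *Plac8* and *Chil3*. These 3 changes were made after the markers were seen. Monocyte-gate cells were compared as an addition.

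Counts were summed per library or mouse and gated type and tested with edgeR 4.0.16 (quasi-likelihood, TMM, filterByExpr, R 4.3.3), with Benjamini-Hochberg adjustment over all genes tested. DESeq2 1.42.0 was an alternative. Gate genes were kept out of the tests, and no member is a gate gene. Kits were compared without a block. Replicate numbers name the same animal under both kits, so they pair libraries: deviations of same-numbered libraries correlated at 0.269, 0.401 and 0.120 over 12005 genes. The mouse was a block between cell types and subsets. Sampling intervals are exact (Clopper-Pearson, 95%) and, with the floor of 3 counts, cover counting error only. Cells are not replicates, and n is mice or libraries. Library totals ran from 6275898 to 18872816 UMIs. The fits were tested on simulated data. Named were the 10 members, genes of 4 related lists that were called or reached 5 CPM (at most 5 partners and 3 immediate early genes per comparison) and the 3 genes most like each member. Members and lists were chosen with earlier results of these data known. Genes were counted without division by length, since 3′ tags do not scale with it. The result of 1 gene of the target list is not reported here.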

Additional observations from a re-analysis of the deposited data

Results flagged for a closer look

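In 24 groups of 6 libraries (a member in a cell type), 3 had a library that stood apart from the other 5 by Dixon's ratio, where chance alone gives about 1 in 20. *Klf2* in border macrophages was at 843 CPM (19 UMIs) in the V3.1 library of mouse 1, with the next library at 221 CPM, and 18 of the 19 UMIs lay in 1 cell. *Egr1* in border macrophages was at 70.4 CPM (7 UMIs) in the V3.0 library of mouse 2, with the next at 15.2 CPM, and all 7 UMIs lay in 1 cell of 5169 UMIs with 48 UMIs of border macrophage markers. *Klf10* in microglia was at 8.78 CPM (28 UMIs) in the V3.0 library of mouse 3, the library with the lowest share of passing barcodes, with the next at 6.82 CPM.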

How the results depend on the processing

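Over 105 alternative fits and the share tests at other settings, 719 of 758 values of the members kept their side of the threshold. The values of the share tests are among the 719 by design. Their p cannot go below 0.10, so they say nothing about stability. Of these 719, 44 were not called and changed sign. A further 28 values lost the call and 6 gained it. The other 5 changed sign with a call in the main fit or in the alternative, all 5 by total UMIs. By total UMIs, neutrophils against microglia gave −0.031 for *Klf6*, −0.66 for *Btg2* and −0.021 for *Zfp36*. Neutrophils against border macrophages gave −0.082 for *Klf2*, −0.25 for *Klf3*, −0.43 for *Klf6*, −0.32 for *Junb*, −0.24 for *Btg2* and −0.33 for *Zfp36*. Monocyte-gate cells against neutrophils gave 0.61 for *Klf6*, 0.31 for *Fos* and 0.44 for *Dusp1*. Members called between border macrophages and microglia were 2 within either kit and 2 to 4 with 1 mouse left out. Between neutrophils and microglia they were 3 by total UMIs, and between neutrophils and border macrophages 3 within V3.0 and 1 by total UMIs. In chemokine-gated microglia the count was 1 without the replicate block and 0 to 1 with 1 mouse left out, 0 without mouse 1. In interferon-gated microglia it was 0 without the block and 0 with the stricter gate. With the mouse as a replicate block, the kit fit called 587 genes instead of 368 and still 0 members. The kit fit called 157 genes without mouse 1 and 168 without mouse 2. For DNC-INHIB, 113 genes became 15 with DESeq2, 62 within V3.1, 33 with 500 genes per cell allowed, 38 with the stricter gate, 53 over 6 libraries with kit as a term, 71 without the V3.0 library of mouse 3 and 73 by total UMIs, and *Klf2* was called each time. Between border macrophages and microglia 1272 genes became 775 within V3.0, 827 within V3.1 and 614 without mouse 2. Between neutrophils and microglia 5350 became 3353 within V3.0, and between neutrophils and border macrophages 3571 became 2209 within V3.0 and 2284 without mouse 2. In chemokine-gated microglia 250 became 116 with DESeq2 and 16, 125 and 102 without mice 1, 2 and 3. In interferon-gated microglia 278 became 181 without mouse 2. The interaction of kit and cell type called 2 genes, and 8 with the replicate block, 6 with no filter, 4 without mouse 1, 1 by total UMIs and 0 without the V3.0 library of mouse 3. DNC-INHIB in border macrophages called 2, and 4 with no filter and 0 within either kit or without that library. Monocyte-gate cells against border macrophages gave 686 instead of 1496 without mouse 2. No cause of these changes was tested.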
